A study of Mus musculus with 54 samples.

Results

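The interferon response and antigen presentation genes of mouse liver are described here, 37 genes chosen by symbol from the 20143 gene symbols of the deposited table. They comprise 14 interferon-induced antiviral proteins, 4 transcription factors of the interferon pathway, 7 interferon-inducible GTPases, 7 genes of MHC class I presentation and 5 genes of MHC class II presentation. All 37 were found in the table, and 35 passed the filter of a mean of at least 1 over all mice. Ifit2 (mean 0.57) and Ciita (mean 0.35) did not pass and were not tested.

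RNA came from the liver of wild-type male C57BL/6J mice on a high-fat diet from 8 weeks of age, which all groups received. After habituation to placebo pellets, DINP (di-isononyl phthalate, a plasticizer) was given orally in gelatin pellets for 20 weeks. The doses were 0 (placebo pellet, control, n = 14), 1.5 (n = 13), 15 (n = 13) or 150 (n = 14) mg/kg bw/d. Libraries were made with a QuantSeq 3′ kit, which reads the 3′ end of polyadenylated transcripts. In each mouse the deposited values are whole multiples of 1 step, as when TPM (transcript levels scaled to a fixed total) are rounded and then scaled between mice, so the sequencing depth is unknown. Changes are log2 fold changes (log2FC) of the value plus 1, given ± SE, and a gene passed the test where its p from limma, adjusted by Benjamini-Hochberg over 11431 rows, was under 0.05.

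Interferons are cytokines that bind receptors on the cell surface. Type I interferon signals through a complex that holds Stat2 and Irf9 and binds the interferon-stimulated response element (ISRE) of antiviral genes, whereas type II interferon induces Irf1 and raises immunity-related GTPases, guanylate-binding proteins and antigen presentation. MHC class I, made of a heavy chain and B2m, presents peptides from the cytosol of nearly every cell, and the Tap transporter and tapasin load it in the endoplasmic reticulum. MHC class II is carried in the liver mainly by Kupffer cells, dendritic cells and B cells. In whole liver RNA, fewer cells of a type and less RNA per cell cannot be told apart.

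Promoters (250 bases before to 50 bases after the start, RefSeq, GRCm38.p6) were at hand for 27 of the 37 genes. The ISRE core GAAANNGAAA, on either strand, was in 13 of these 27 (48.1%) and in 3.99% of all 27025 genes with a promoter. By class it was in 6 of 10 antiviral proteins, 5 of 6 GTPases, 1 of 4 transcription factors, 1 of 5 class I genes and 0 of 2 class II genes. The GAS motif TTCNNNGAA, on either strand, was in 7 of 27 (25.9%, 9.55% of all), and the Y box ATTGG, on either strand, in 14 of 27 (51.9%, 41.1% of all), among them all 5 class I and both class II promoters. The TATA box TATAAA, on the sense strand, was in 4 (14.8%, 9.77% of all). Of 21 ISRE core matches, 1 overlapped a match of another motif. The promoters of 3 genes that passed the test in the comparisons below and that hold the ISRE core, and of the class II gene with the highest mean, are shown 5′ to 3′, with the ISRE core (Ifit1, B2m, Stat2) or the Y box (H2-Aa) in capitals. They lie at chr19:34640639-34640938 (+), chr2:122147437-122147736 (+), chr10:128270248-128270547 (+) and chr17:34287774-34288073 (-), in the order Ifit1, B2m, Stat2 and H2-Aa. Ifit1 holds 2 ISRE cores close to each other, while B2m and Stat2 hold 1 each.
Ifit1: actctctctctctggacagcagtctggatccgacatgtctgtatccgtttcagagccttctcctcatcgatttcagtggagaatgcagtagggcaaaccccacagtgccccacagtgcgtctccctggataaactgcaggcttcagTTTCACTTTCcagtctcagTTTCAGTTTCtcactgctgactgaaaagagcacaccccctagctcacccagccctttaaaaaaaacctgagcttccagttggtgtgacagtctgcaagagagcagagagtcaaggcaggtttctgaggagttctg
B2m: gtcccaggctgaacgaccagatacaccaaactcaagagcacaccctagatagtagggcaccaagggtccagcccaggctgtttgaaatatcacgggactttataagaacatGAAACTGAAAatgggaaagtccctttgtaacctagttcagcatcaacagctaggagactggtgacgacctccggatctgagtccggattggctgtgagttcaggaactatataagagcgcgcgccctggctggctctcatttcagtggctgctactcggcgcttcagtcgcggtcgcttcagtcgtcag
Stat2: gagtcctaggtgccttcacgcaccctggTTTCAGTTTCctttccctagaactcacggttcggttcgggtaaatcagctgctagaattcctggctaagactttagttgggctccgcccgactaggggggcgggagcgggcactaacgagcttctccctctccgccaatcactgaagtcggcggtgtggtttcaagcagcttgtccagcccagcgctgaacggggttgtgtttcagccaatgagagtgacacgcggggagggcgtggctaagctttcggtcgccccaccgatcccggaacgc
H2-Aa: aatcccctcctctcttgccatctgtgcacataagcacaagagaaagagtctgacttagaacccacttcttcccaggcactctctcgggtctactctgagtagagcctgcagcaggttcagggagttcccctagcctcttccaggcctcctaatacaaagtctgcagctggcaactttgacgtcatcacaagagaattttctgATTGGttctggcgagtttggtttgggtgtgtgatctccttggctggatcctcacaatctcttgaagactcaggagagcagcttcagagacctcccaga

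A group of libraries stood apart from the rest and touches most results below. On the first principal component of the 11396 tested rows other than these genes (13.7% of the variance), 8 libraries scored 25.4 to 52.6 and the other 46 scored -24.8 to 8.19. The 8 were 6 of the 13 mice at 15 mg/kg (replicates 4 to 9), replicate 1 of the control and replicate 10 of 150 mg/kg, with none at 1.5 mg/kg. Their mean log2 level over 81 ribosomal protein rows was 7.17 to 7.61, against 6.51 to 7.03 in the others, and their summed level of 8 hepatocyte markers (31163 to 53812) lay within or next to that of the others (24702 to 52337). The summed level of 7 endothelial cell markers was lower in the 8 (62.2 to 86.5, median 74.9, against 70.0 to 104, median 92.0), and that of 12 T and NK cell markers had a higher median (19.3, from 13.0 to 125, against 12.9, from 6.79 to 71.1). No label names a batch for them, and since only 1 control was among them no comparison within the 8 was possible. For each call of these genes the value without these 8 is therefore given too, an alternative chosen after the data were seen. What the component stands for was not tested.

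At 1.5 mg/kg no interferon or antigen presentation gene differed from control, while at 15 mg/kg 6 did and at 150 mg/kg none did. At 15 mg/kg the 6 did not move together: B2m and Ifit1 were higher, and the factors Stat2 and Irf9 and the class I loading genes Tap2 and Tapbp were lower. The share of 17.1% (6 of 35) lay near the 14.2% of all rows that passed this test, so it is not a result about these genes. At 1.5 mg/kg 0 of 35 passed (1.20% of all rows; limma, 1 at an unadjusted p under 0.05), and at 150 mg/kg 0 of 35 (2.17% of all rows; limma, 4 at an unadjusted p under 0.05; rank-sum test, 0 at both doses). With a log2FC beyond 0.5 as well, 4 remained at 15 mg/kg (B2m, Ifit1, Stat2 and Tap2; 3.72% of all rows). Without the 8 libraries 1 of 35 passed at 15 mg/kg (5.31% of all rows), none at 1.5 mg/kg (2.53%) and none at 150 mg/kg (3.62%), and the 1 was Trim25, not 1 of the 6. The counts at an unadjusted p under 0.05 were then 6 at 15 mg/kg and 5 at each other dose (limma). Over all 11431 rows the counts at such a p were 1406 at 1.5 mg/kg and 1604 at 150 mg/kg with all mice. Without the 8 libraries they were 1649, 2242 and 1923 at 1.5, 15 and 150 mg/kg (limma). The counts at an unadjusted p are therefore not a result about these genes. With all mice and the score on the first component as a covariate, also chosen after the data were seen, 2 of 35 passed at 15 mg/kg against control. This was 5.71%, against 9.12% of all rows, so it is not a result about these genes. The 2 were Stat2 (-0.45, adjusted p = 0.034) and Tapbp (-0.30, adjusted p = 0.015). The other 4 of the 6 did not pass, B2m being at 0.15 (adjusted p = 0.14) and Tap2 at -0.19 (adjusted p = 0.37).

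**Figure D1:**
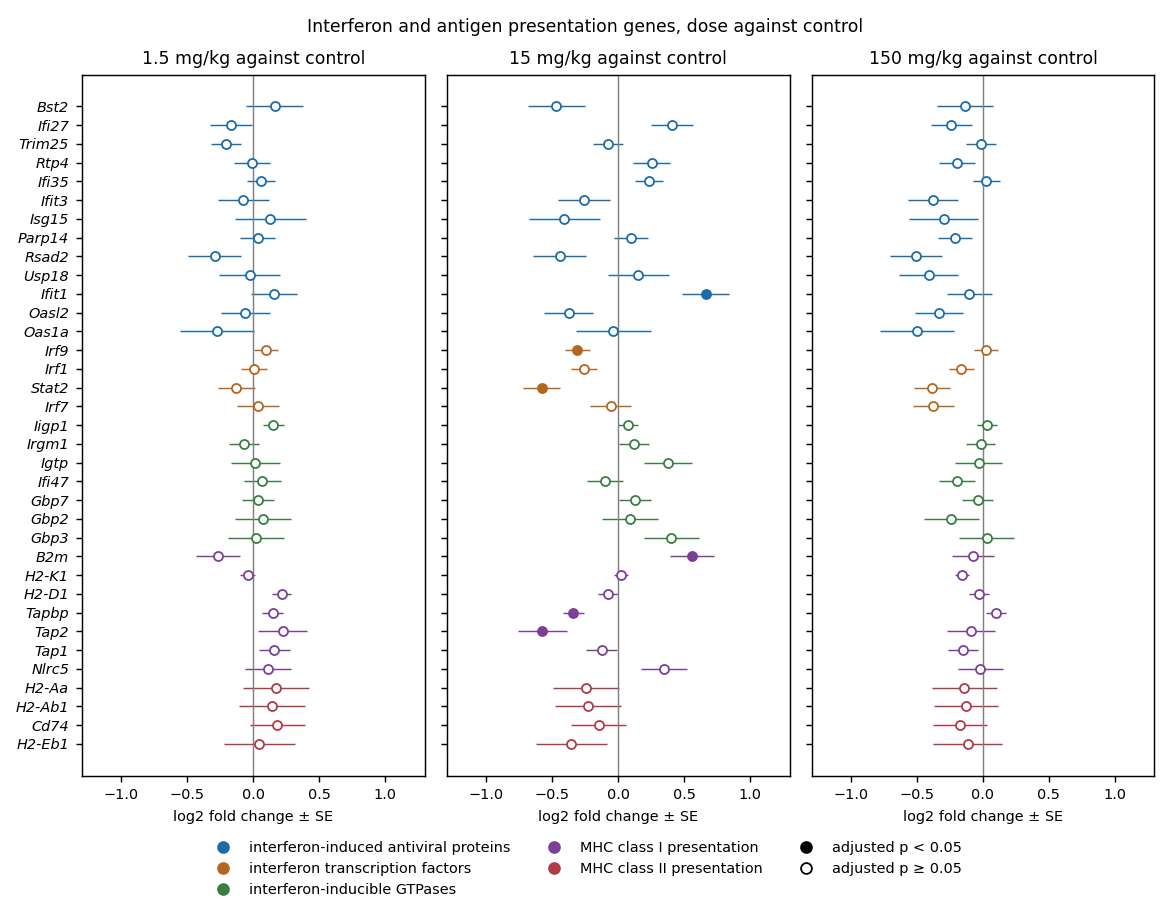
Log2 fold change of the 35 tested genes for each dose against control (x axis, points with SE), with genes on the y axis coloured by class and filled where the adjusted p was under 0.05. The 6 filled points are all at 15 mg/kg and lie on both sides of 0, and at 150 mg/kg 30 of 35 points lie below 0 with none filled.

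The split of the genes by direction differed between doses, which was not tested. Some of these genes vary together between mice, so the counts by direction are not of independent genes. At 1.5 mg/kg 23 were higher and 12 lower (median log2FC 0.04; 0.00 over all rows), at 15 mg/kg 15 and 20 (median -0.08; 0.00 over all rows) and at 150 mg/kg 5 and 30 (median -0.14; -0.01 over all rows). At 150 mg/kg the lowest values were those of antiviral genes and of transcription factors, down to -0.51 (Rsad2, ± 0.20, adjusted p = 0.20), and 12 of 13 antiviral genes were below 0. Stat2 (-0.38 ± 0.14, adjusted p = 0.14), Irf7 (-0.38, adjusted p = 0.22), and H2-K1 (-0.16 ± 0.05, adjusted p = 0.12) made up the 4 genes with an unadjusted p under 0.05 together with Rsad2. Over all 11431 rows 1604 had such a p at this dose (limma). At 150 mg/kg 29 of 35 were lower when the 8 libraries were left out, with a median of -0.17 and the smallest adjusted p 0.087. Of all 11431 rows 5918 were lower at 150 mg/kg, and 5956 without the 8 libraries. All 3 doses were compared with the same controls.

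Among the antiviral proteins, Ifit1, which binds viral RNA that lacks host cap marks, was the only 1 of 13 past the test against control. It passed at 15 mg/kg, where 14.2% of all rows did. Ifit1 (chr19:34640871-34650009, +) was 0.960 to 3.06 (median 1.87) in control mice, 0.895 to 3.81 (2.03) at 1.5 mg/kg, 1.01 to 8.86 (2.90) at 15 mg/kg and 0.970 to 2.12 (1.06) at 150 mg/kg. Of the 13 mice at 15 mg/kg, 12 exceeded the control median, but the groups overlapped, and most of its values are 1 to 3 rounding steps, a step being 0.764 to 1.11. Ifit1 rose at 15 mg/kg by 0.66 ± 0.18 (adjusted p = 0.0072). The 6 libraries apart at this dose held 1.99 to 8.86 and the other 7 mice 1.01 to 4.09, and without the 8 libraries the change was 0.36 (adjusted p = 0.25).

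Other antiviral genes differed between doses. Ifi27, an interferon-induced protein of membranes, was 36.4 to 127 (median 52.4) in control mice, 40.1 to 70.7 (48.0) at 1.5 mg/kg, 44.7 to 185 (69.5) at 15 mg/kg and 33.4 to 57.1 (50.7) at 150 mg/kg. At 15 mg/kg it was higher than at 1.5 mg/kg (0.58 ± 0.16, adjusted p = 0.0073), and at 150 mg/kg it was lower than at 15 mg/kg (-0.65 ± 0.16, adjusted p = 0.0024), while against control it did not pass (0.41 ± 0.16, adjusted p = 0.077). The high values at 15 mg/kg came from the libraries apart (59.2 to 185) rather than from the other 7 mice (44.7 to 76.7), and without the 8 libraries both calls were lost (0.20, adjusted p = 0.54, and -0.29, adjusted p = 0.30).

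Rtp4, a receptor transporter protein that interferon induces, was 8.11 to 24.5 (median 14.0) in control mice, 7.08 to 21.9 (14.1) at 1.5 mg/kg, 10.7 to 32.8 (15.3) at 15 mg/kg and 8.54 to 15.5 (12.0) at 150 mg/kg. It was lower at 150 than at 15 mg/kg (-0.45 ± 0.14, adjusted p = 0.015), with overlapping groups, and this call was lost without the 8 libraries (-0.26, adjusted p = 0.34). Bst2 (tetherin, which holds budding virus at the cell surface) had the highest mean of the antiviral genes. It was 38.4 to 193 (median 97.0) in control mice, 86.7 to 140.0 (109) at 1.5 mg/kg, 26.5 to 177 (68.4) at 15 mg/kg and 25.7 to 124 (94.8) at 150 mg/kg. The lowest value of the control and of the 150 mg/kg group was in each case the library apart, and at 15 mg/kg the 6 held 26.5 to 75.3 against 56.4 to 177 in the other 7. Bst2 was lower at 15 than at 1.5 mg/kg (-0.63 ± 0.22, adjusted p = 0.032), and without the 8 libraries the difference was -0.06 (adjusted p = 0.89).

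Trim25, a ubiquitin ligase that acts on the RNA sensor RIG-I, passed in no comparison with all mice and passed without the 8 libraries. It was 11.0 to 20.8 (median 16.1) in control mice, 10.1 to 17.7 (13.4) at 1.5 mg/kg, 10.2 to 26.3 (12.6) at 15 mg/kg and 12.4 to 20.2 (15.8) at 150 mg/kg. The 7 other mice at 15 mg/kg held 10.2 to 13.1 and the 6 libraries apart 11.0 to 26.3. With all mice the log2FC against control was -0.08 ± 0.12 (adjusted p = 0.71), and without the 8 libraries Trim25 fell by 0.39 ± 0.10 (adjusted p = 0.0099) and was higher at 150 than at 15 mg/kg (0.40 ± 0.10, adjusted p = 0.0046). With the first component as a covariate the latter also passed (0.33, adjusted p = 0.032) and the former did not (-0.26, adjusted p = 0.082). Ifit3, Isg15, Oas1a, Oasl2, Rsad2, Usp18, Ifi35 and Parp14 passed in none of the 6 comparisons, with all mice or without the 8 libraries.

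All 4 transcription factors were below control at 15 mg/kg, and 2 passed the test, which 14.2% of all rows passed. Irf9 (chr14:55603571-55610030, +), the DNA-binding subunit of the complex with Stat2, was 15.8 to 23.8 (median 20.0) in control mice, 16.1 to 35.3 (21.2) at 1.5 mg/kg, 9.87 to 20.1 (15.5) at 15 mg/kg and 15.4 to 28.2 (19.5) at 150 mg/kg. At 15 mg/kg 1 of 13 mice was above the control median. Irf9 was lower at 15 mg/kg than in control (-0.31 ± 0.09, adjusted p = 0.017) and than at 1.5 mg/kg (-0.40 ± 0.09, adjusted p = 0.0013), and higher at 150 than at 15 mg/kg (0.33 ± 0.09, adjusted p = 0.0066). The last 2 calls were lost without the 8 libraries (-0.26, adjusted p = 0.14, and 0.22, adjusted p = 0.21). Stat2 (chr10:128270559-128292849, +), the partner of Irf9, was 7.48 to 19.1 (median 10.7) in control mice, 7.21 to 14.7 (10.2) at 1.5 mg/kg, 3.32 to 11.4 (6.96) at 15 mg/kg and 5.10 to 14.6 (8.28) at 150 mg/kg.

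For Stat2, 2 of 13 mice at 15 mg/kg and 1 of 14 at 150 mg/kg exceeded the control median. It was lower at 15 mg/kg than in control (-0.58 ± 0.14, adjusted p = 0.0032) and than at 1.5 mg/kg (-0.45 ± 0.14, adjusted p = 0.019). Irf1, a factor that type II interferon induces, was 17.1 to 27.5 (median 20.1), 16.7 to 24.7 (20.6), 11.0 to 23.5 (17.9) and 12.6 to 27.2 (17.4) in the order control, 1.5, 15 and 150 mg/kg. Irf1 was lower at 15 than at 1.5 mg/kg (-0.27 ± 0.10, adjusted p = 0.047), and against control it did not pass (-0.26 ± 0.10, adjusted p = 0.066). Irf7 passed in no comparison. All 4 stayed below control at 15 mg/kg when the 8 libraries were left out, and none passed: Stat2 was at -0.33 (adjusted p = 0.22), Irf1 at -0.20 (adjusted p = 0.37) and Irf9 at -0.16 (adjusted p = 0.42). The calls of Stat2 and Irf1 at 15 against 1.5 mg/kg were lost as well (-0.20, adjusted p = 0.55, and -0.20, adjusted p = 0.37).

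No interferon-inducible GTPase passed in any of the 6 comparisons, with all mice or without the 8 libraries. These enzymes (immunity-related GTPases and guanylate-binding proteins) attack the vacuoles of intracellular pathogens. Iigp1, the member with the highest mean, was 120.0 to 215 (median 158) in control mice, 143 to 228 (185) at 1.5 mg/kg, 140.2 to 231 (159.5) at 15 mg/kg and 135 to 188 (165) at 150 mg/kg. Its groups overlapped over most of their range, and its log2FC against control was 0.15 ± 0.08, 0.07 ± 0.08 and 0.03 ± 0.08 at 1.5, 15 and 150 mg/kg. Of the 7 GTPases 6 were above control at 15 mg/kg (median log2FC 0.12, from -0.10 to 0.40) and at 150 mg/kg 5 were below (median -0.03). Without the 8 libraries 4 were above and 3 below at 15 mg/kg (from -0.16 to 0.24), and 6 were below at 150 mg/kg.

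Of the 7 tested MHC class I genes 3 passed at 15 mg/kg against control, while 14.2% of all rows did. Without the 8 libraries none of the 7 passed (5.31% of all rows). B2m (beta-2-microglobulin, chr2:122147686-122153083, +), the light chain of class I, was 699.9 to 1736 (median 946) in control mice, 642 to 1072 (790.4) at 1.5 mg/kg, 744 to 3075 (1061) at 15 mg/kg and 742 to 1412 (891) at 150 mg/kg. The 8 highest values of the 54 mice were those of the 8 libraries apart: 1901 to 3075 in the 6 at 15 mg/kg, 1736 in the control and 1412 at 150 mg/kg, while the other 46 mice held 642 to 1151. With all mice B2m was higher at 15 mg/kg than in control (0.56 ± 0.17, adjusted p = 0.016) and than at 1.5 mg/kg (0.83 ± 0.17, adjusted p = 0.00030), and it was lower at 150 than at 15 mg/kg (-0.64 ± 0.17, adjusted p = 0.0041). All 3 calls were lost without the 8 libraries, with changes of -0.03 (adjusted p = 0.90), 0.17 (adjusted p = 0.29) and -0.03 (adjusted p = 0.90) in the same order.

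Tap2 (chr17:34203527-34216321, +), a subunit of the peptide transporter, was 5.20 to 14.7 (median 11.8) in control mice, 10.1 to 18.5 (12.9) at 1.5 mg/kg, 2.21 to 17.3 (7.14) at 15 mg/kg and 5.13 to 17.8 (10.6) at 150 mg/kg. The 8 lowest values of all mice were those of the 8 libraries apart, 2.21 to 6.20 at 15 mg/kg, 5.20 in the control and 5.13 at 150 mg/kg, and the other 46 mice held 7.14 to 18.5. Tap2 was lower at 15 mg/kg than in control (-0.57 ± 0.18, adjusted p = 0.028) and than at 1.5 mg/kg (-0.80 ± 0.19, adjusted p = 0.0015). When the 8 libraries were left out the change was -0.04 against control (adjusted p = 0.92) and -0.18 against 1.5 mg/kg (adjusted p = 0.51). For the call against control, leaving out 1 of replicates 4, 5, 6, 8 or 9 at 15 mg/kg was enough to lose it (adjusted p up to 0.077).

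Tapbp (tapasin, chr17:33915899-33929292, +), which bridges class I to the transporter, was 41.2 to 62.7 (median 47.2) in control mice, 46.4 to 70.7 (53.8) at 1.5 mg/kg, 30.1 to 52.3 (37.0) at 15 mg/kg and 43.5 to 61.1 (53.6) at 150 mg/kg. Of the mice at 15 mg/kg, 3 of 13 were above the control median, against 12 of 13 at 1.5 mg/kg and 13 of 14 at 150 mg/kg. Tapbp was lower at 15 mg/kg than in control (-0.34 ± 0.08, adjusted p = 0.0021), than at 1.5 mg/kg (-0.49 ± 0.08, adjusted p = 1.91e-05) and than at 150 mg/kg (0.44 ± 0.08 for 150 against 15, adjusted p = 5.59e-05). At 15 mg/kg it was 33.8 to 52.3 in the 7 mice not among the 8 libraries, and without those libraries it stayed lower at 15 than at 1.5 mg/kg (-0.35 ± 0.09, adjusted p = 0.013) and at 150 mg/kg higher than at 15 (0.31 ± 0.09, adjusted p = 0.020), while the change against control did not pass (-0.20, adjusted p = 0.19). Over the rows of a library, the deviation from the control mean was also correlated with transcript GC content (Spearman rho, median -0.010 in the 46). At 15 mg/kg rho was -0.126 to -0.214 in replicates 1, 2, 3 and 11, where Tapbp was 33.8 to 40.0. In replicates 10, 12 and 13 rho was -0.015 to -0.102 and Tapbp was 49.9 to 52.3. This split was seen after the fact, and its part in these calls was not tested.

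**Figure D2:**
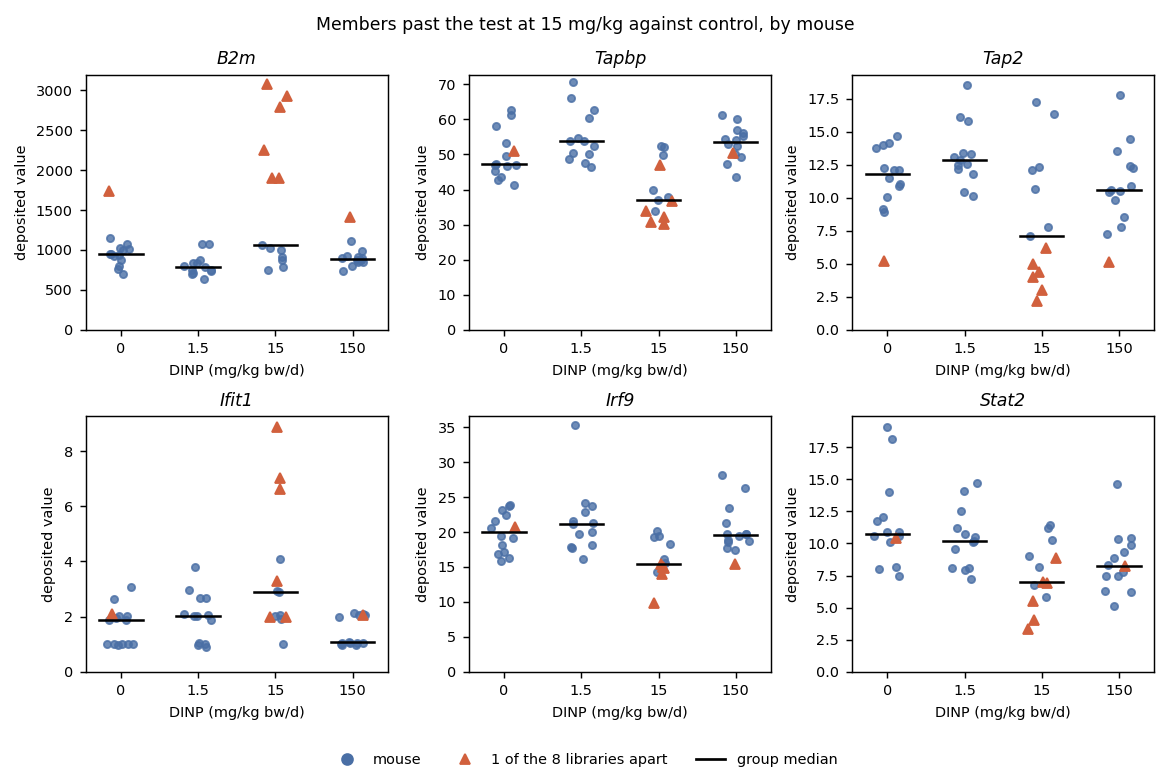
Deposited value of each mouse (y axis, linear from 0) by DINP dose (x axis, mg/kg bw/d) for the 6 genes past the test at 15 mg/kg against control. Circles are mice, triangles the 8 libraries that stand apart and lines the group medians. For B2m the triangles hold the 8 highest values (1412 to 3075) and for Tap2 the 8 lowest (2.21 to 6.20).

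The class I heavy chains H2-K1 and H2-D1 differed between doses by small amounts. H2-D1 was 173 to 269 (median 198) in control mice, 186 to 304 (229) at 1.5 mg/kg, 161 to 252 (182) at 15 mg/kg and 168 to 228 (196) at 150 mg/kg. It was highest at 1.5 mg/kg and lower at 15 (-0.29 ± 0.08, adjusted p = 0.0036) and at 150 mg/kg (-0.25 ± 0.07, adjusted p = 0.040) than at 1.5 mg/kg, with overlapping groups. Both calls stood without the 8 libraries (-0.31, adjusted p = 0.035, and -0.25, adjusted p = 0.035), but the second was lost in 12 of 27 fits that left out 1 mouse. At 15 mg/kg H2-D1 was 161 to 182 in replicates 1, 2, 3 and 11 and 198 to 238 in replicates 10, 12 and 13. These 2 sets differ in the correlation with GC content given for Tapbp, and its part in the first call was not tested.

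H2-K1 was 529 to 720.1 (median 563) in control mice, 427 to 657 (576) at 1.5 mg/kg, 512 to 654 (590.4) at 15 mg/kg and 436 to 591 (528) at 150 mg/kg. It was lower at 150 than at 15 mg/kg (-0.18 ± 0.06, adjusted p = 0.016), a call lost without the 8 libraries (-0.15, adjusted p = 0.15). The heavy chain genes belong to a family of similar genes, and how reads were split among them is not known here, so these values are uncertain. Tap1, the other transporter subunit, and Nlrc5, which switches on class I genes, passed in no comparison.

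**Figure D3:**
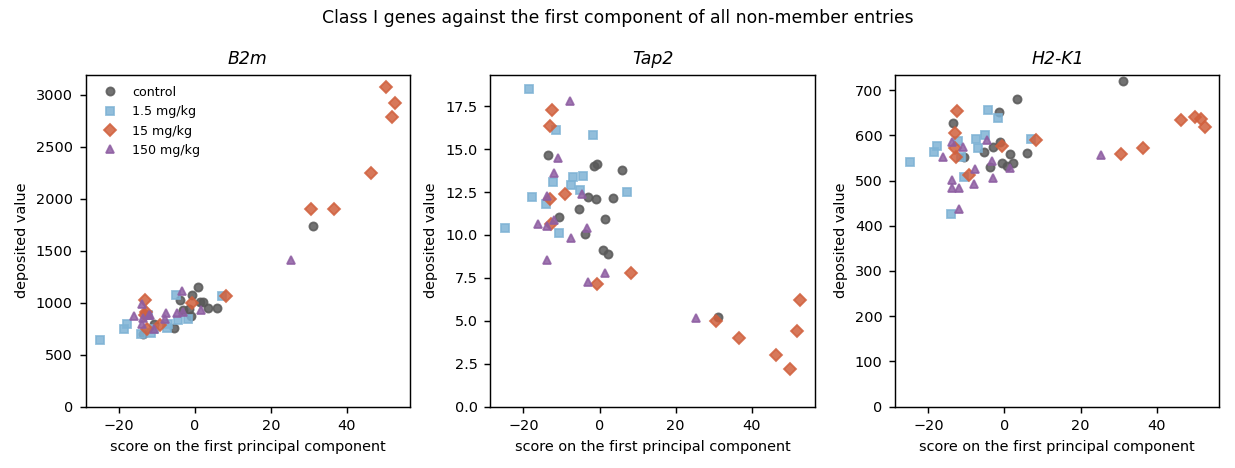
Deposited value of B2m, Tap2 and H2-K1 (y axes, linear from 0) against the score of each mouse on the first principal component of all rows but the 37 genes (x axis, no unit), with symbols by group. The 8 libraries lie at scores of 25.4 to 52.6, with B2m of at least 1412 and Tap2 of at most 6.20, while H2-K1 lies within 557 to 720.1 there and within 427 to 681 in the others.

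Between the doses the counts past the test were again near those of all rows. At 15 against 1.5 mg/kg 10 of 35 passed, 3 higher and 7 lower (21.4% of all rows), at 150 against 1.5 mg/kg 1 of 35, lower (4.61% of all rows), and at 150 against 15 mg/kg 7 of 35, 2 higher and 5 lower (20.0% of all rows). Without the 8 libraries these counts were 2 (H2-D1 and Tapbp; 5.06% of all rows), 1 (H2-D1; 6.88% of all rows) and 2 (Tapbp and Trim25; 8.34% of all rows). The first 2 of these comparisons share the mice at 1.5 mg/kg, and the first and last share those at 15 mg/kg.

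**Figure D4:**
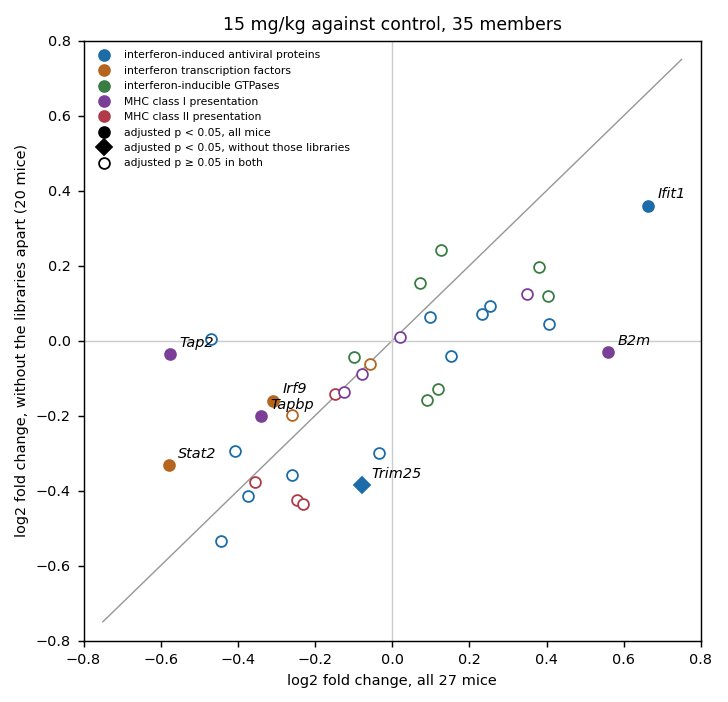
Log2 fold change of the 35 tested genes at 15 mg/kg against control with all 27 mice (x axis) and without the libraries apart, 20 mice (y axis), with the line of equal change. B2m (0.56 and -0.03) and Tap2 (-0.57 and -0.04) lie at 0 on the y axis, Stat2 (-0.58 and -0.33) and Ifit1 (0.66 and 0.36) lie between 0 and the line, and the diamond is Trim25 (-0.08 and -0.39).

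No MHC class II gene passed in any comparison, with all mice or without the 8 libraries, but these genes varied widely between mice. H2-Aa, the alpha chain, was 40.8 to 228 (median 61.6) in control mice, 33.4 to 217 (71.0) at 1.5 mg/kg, 38.7 to 229 (59.2) at 15 mg/kg and 40.3 to 123 (59.4) at 150 mg/kg. The groups overlapped throughout, and the log2FC against control was 0.17 ± 0.25, -0.25 ± 0.25 and -0.14 ± 0.25 at 1.5, 15 and 150 mg/kg. The residual SD of H2-Eb1, H2-Aa, H2-Ab1 and Cd74 (the invariant chain) on the log2 scale was 0.56 to 0.72, against a median of 0.32 over all tested rows, and each lay above 93.0 to 96.7% of the rows with a mean within 1.5-fold of its own. In contrast H2-K1 (0.13) lay above 3.33% of the rows of like mean and H2-D1 (0.19) above 18.4%. Over the 35 genes, 25 lay above the 50th percentile of rows of like mean, Isg15 (0.72, 93.7th percentile) and Bst2 (0.58, 94.2nd percentile) among them.

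The class II genes varied together. After removal of the group means, H2-Ab1 and H2-Aa correlated over the 54 mice (r = 0.96, rho = 0.93; r = 0.96 in the 46 mice not among the 8, and 0.95 to 0.98 within the 4 groups), as did H2-Ab1 and Cd74 (r = 0.85, rho = 0.79; r = 0.91 in the 46, and 0.66 to 0.94 within the groups). With the Kupffer cell gene Clec4f the correlation of H2-Ab1 was weak (r = 0.29; 0.42 in the 46), and with the B cell gene Cd79b likewise (r = 0.35; 0.27 in the 46). With Itgax, 1 of 8 genes listed as dendritic cell markers, the correlation of H2-Ab1 was higher (r = 0.72, rho = 0.48). There r was 0.66 in the 46, and 0.54 without the 2 mice farthest from the median of H2-Ab1. But Itgax was listed at 0 in 47 of 54 mice, and which cells it came from was not tested. These pairs were chosen after the data were seen and are given as a description, since the mice share the scaling and the 2 genes of a pair share a library. Cd79b was listed at 0 in 13 mice. The summed level of 13 Kupffer cell and macrophage markers was 203 to 652 in control mice, 172 to 414 at 1.5 mg/kg, 171 to 549 at 15 mg/kg and 179 to 372 at 150 mg/kg. Of these 13, Csf1r fell at 15 mg/kg against control (-0.60 ± 0.17, adjusted p = 0.011; -0.45, adjusted p = 0.17, without the 8 libraries) and no other passed there. Of 7 endothelial cell markers Pecam1 fell (-0.52 ± 0.11, adjusted p = 0.00087; -0.28, adjusted p = 0.13, without the 8), and of 8 hepatocyte markers Ttr rose (0.42 ± 0.13, adjusted p = 0.023; 0.23, adjusted p = 0.45, without the 8). Of all rows 14.2% passed this test at 15 mg/kg. Counts of 1 of 13, 1 of 7 and 1 of 8 are thus not results about these cell types. Pecam1 at 1.5 mg/kg did not pass with all mice (-0.31, adjusted p = 0.18). Without the 8 libraries it did (-0.34, adjusted p = 0.028), where 2.53% of all rows passed. The part of these cell types in the class II values was not tested.

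**Figure D5:**
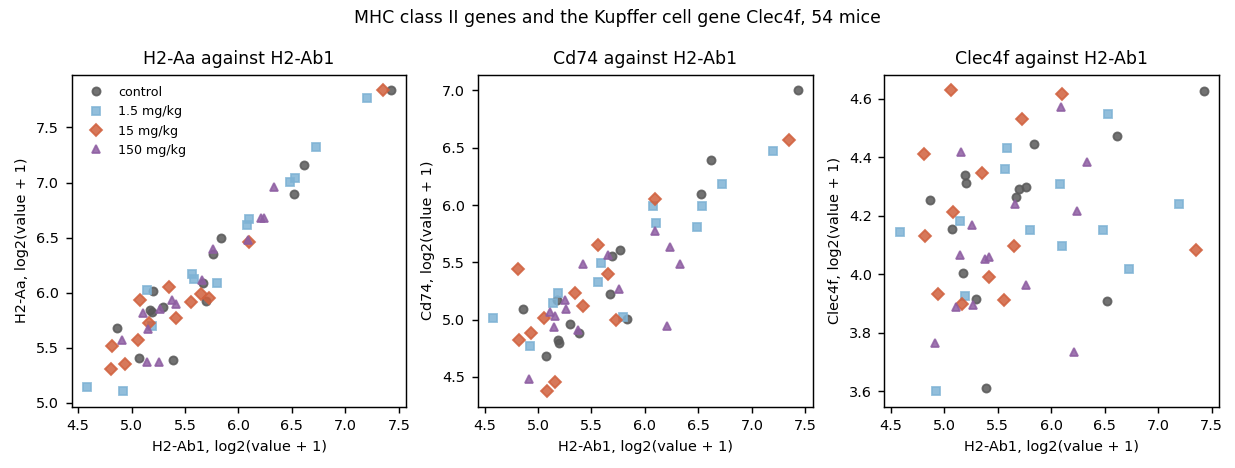
H2-Aa, Cd74 and Clec4f (y axes) against H2-Ab1 (x axis), each as log2(value + 1), for 54 mice with symbols by group. H2-Aa rises closely with H2-Ab1 (r = 0.96 after removal of the group means) and Cd74 more loosely (r = 0.85), while Clec4f scatters more widely (r = 0.29).

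Correlations of transcription factors with the genes they are known to act on were computed for 10 pairs over the 54 mice, as deviations from the group means (2-sided permutation test within groups with 100000 resamples, adjusted over 20 tests). Here too the mice share the scaling and the 2 genes of a pair share a library. Whether the factors act on these genes in these livers was not tested. Irf7, a factor that amplifies type I interferon, correlated with Ifit1 (r = 0.53, adjusted p = 8.0e-05; rho = 0.48, adjusted p = 0.0012) and Isg15 (r = 0.58, adjusted p = 8.0e-05; rho = 0.50, adjusted p = 0.00063). Irf1 correlated with Gbp2 (r = 0.38, adjusted p = 0.013; rho = 0.43, adjusted p = 0.0038) and with Tap1 (r = 0.33, adjusted p = 0.028; rho = 0.37, adjusted p = 0.014). Ciita, the master regulator of class II genes, correlated with H2-Ab1 (r = 0.65, rho = 0.49) and Cd74 (r = 0.68, rho = 0.57), with adjusted p of at most 0.00023, but it was listed at 0 in 36 of 54 mice.

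Irf9 and Oas1a (r = 0.27, adjusted p = 0.066), Stat2 and Rtp4 (r = 0.06, adjusted p = 0.80), Nlrc5 and H2-K1 (r = -0.02, adjusted p = 0.90) and Nlrc5 and B2m (r = 0.15, adjusted p = 0.41) did not pass. In the 46 mice not among the 8 libraries the values were 0.57 and 0.54 for Irf7 with Ifit1 and Isg15, 0.43 and 0.45 for Irf1 with Gbp2 and Tap1, 0.66 and 0.67 for Ciita with H2-Ab1 and Cd74, and 0.37 (adjusted p = 0.019) for Irf9 and Oas1a. Without the 2 mice farthest from the median of the factor, r was 0.40 and 0.47 for the Irf7 pairs, 0.36 and 0.45 for the Irf1 pairs and 0.55 and 0.59 for the Ciita pairs. Within groups the pairs were uneven: Irf7 and Isg15 had r = 0.65, 0.49, 0.85 and 0.07, and Irf7 and Ifit1 0.87, 0.52, 0.40 and 0.50, in the order control, 1.5, 15 and 150 mg/kg.

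Upstream of these genes, Ifnar2, a subunit of the type I interferon receptor, rose at all 3 doses. It was 56.6 to 81.3 (median 68.0) in control mice, 77.7 to 102 (83.3) at 1.5 mg/kg, 68.2 to 94.6 (83.3) at 15 mg/kg and 63.8 to 105 (77.8) at 150 mg/kg. The groups overlapped, least at 1.5 mg/kg. The rise was 0.33 ± 0.06 at 1.5 mg/kg (adjusted p = 0.0039), 0.28 ± 0.06 at 15 mg/kg (adjusted p = 0.0019) and 0.23 ± 0.06 at 150 mg/kg (adjusted p = 0.030), against the same controls. Leaving out the 8 libraries gave 0.32 (adjusted p = 0.0022), 0.35 (adjusted p = 0.0035) and 0.21 (adjusted p = 0.041). Ifnar2 was 1 of 8 tested ligands, receptors and kinases, and no other of them passed at any dose. Of all rows 1.20%, 14.2% and 2.17% passed at 1.5, 15 and 150 mg/kg, and 2.53%, 5.31% and 3.62% without the 8 libraries. At 15 mg/kg with all mice the count of 1 of 8 (12.5%) thus lay near the share of all rows.

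Of 82 tested genes of 6 other lists of the pathway, 5 passed at 15 mg/kg against control (6.10%, below the 14.2% of all rows). Stat3, a factor of interleukin 6 signalling, fell by 0.32 ± 0.09 (adjusted p = 0.012), and Adar, which edits double-stranded RNA, fell by 0.51 ± 0.12 (adjusted p = 0.0026). Parp12 (0.40 ± 0.11, adjusted p = 0.012), Erap1 (0.34 ± 0.07, adjusted p = 0.00026), which trims peptides for class I, and H2-Q6 (0.41 ± 0.15, adjusted p = 0.048), a class I gene of the same family as H2-K1, rose. With the 8 libraries left out Stat3 (-0.34, adjusted p = 0.044), Adar (-0.47, adjusted p = 0.047) and Erap1 (0.30, adjusted p = 0.0095) still passed and Parp12 and H2-Q6 did not. These 3 of 82 (3.66%) lay below the 5.31% of all rows in that setting. Of the 11 tested nucleic acid sensors, 5 immunoproteasome genes and 9 other class II genes none passed against control at any dose (limma; 0 also without the 8 libraries). Of 40 other interferon-stimulated genes 31 were lower at 150 mg/kg (median log2FC -0.13, and 32 of 40 without the 8) and none passed. Of all 11431 rows 5918 were lower there, and 5956 without the 8 libraries.

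Between the doses, 9 of the 82 passed at 15 against 1.5 mg/kg (11.0%, against 21.4% of all rows), 6 at 150 against 1.5 mg/kg (7.32%, against 4.61% of all rows) and 7 at 150 against 15 mg/kg (8.54%, against 20.0% of all rows). The counts without the 8 libraries were 0, 6 and 3 (0.00%, 7.32% and 3.66%, against 5.06%, 6.88% and 8.34% of all rows). No share lay far above that of all rows, so the calls named below are not a result about this pathway. Among 5 immunoproteasome genes, Psmb10, a catalytic subunit, and Psme2, a subunit of the proteasome activator, were higher at 15 than at 1.5 mg/kg (0.66 ± 0.20, adjusted p = 0.012, and 0.44 ± 0.14, adjusted p = 0.016) and lower at 150 than at 15 mg/kg (-0.78 ± 0.20, adjusted p = 0.0029, and -0.53 ± 0.13, adjusted p = 0.0034). These 4 calls were lost without the 8 libraries (adjusted p from 0.17 to 0.79). Psmb8, another catalytic subunit, was lower at 150 than at 1.5 mg/kg (-0.49 ± 0.11, adjusted p = 0.0067), also without the 8 (-0.45, adjusted p = 0.014). H2-Q7 (-0.53, adjusted p = 0.0083), Ly6e (-0.57, adjusted p = 0.031) and Ifitm2 (-0.32, adjusted p = 0.027) were lower there as well. Without the 8 libraries they still passed (adjusted p = 0.0042, 0.021 and 0.014, in this order). Ifitm3 (-0.25, adjusted p = 0.043) and Lgals9 (-0.24, adjusted p = 0.045) passed only with all mice. The 6 counted without the 8 libraries are therefore not the same 6. Of the sensors Tbk1, a kinase that activates Irf3, was higher at 15 than at 1.5 mg/kg (0.27 ± 0.10, adjusted p = 0.049; 0.05, adjusted p = 0.86, without the 8). No other class II gene passed between doses.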

How the data were processed

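Liver RNA of 54 mice was sequenced, and groups were taken from the labels. Per the labels and the study's methods, the authors made QuantSeq 3′ libraries and mapped reads to GRCm38 with STAR, RSEM and Salmon. The deposited signal is in whole multiples of 1 step per mouse (0.764 to 1.11), and the whole numbers sum to 948342 to 980641, so it was read as rounded TPM divided by size factors. Depth is unknown, and no count test was run.

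Rows with a mean of at least 1 (11431 of 20162) were tested as log2(value + 1) with limma 3.58.1 (lmFit, eBayes with trend) in R 4.3.3, with all 4 groups in 1 fit and 6 contrasts. The genes and lists were chosen with earlier results of these data known. 1 pathway gene is not reported here and was left out of the lists. Values are given for genes past the test in any contrast and for the highest mean of each class; Trim25, Rsad2, Irf7 and the class II genes other than H2-Aa were named after their values were seen. Each library is 1 mouse, single housed per the study's methods, and library batches are not given in the sources used here. The pipeline was tested on simulated data. Alternatives were pseudocounts, filters, quantile normalization, weights, robust eBayes, a replicate block, a rank-sum test, single mice left out, and, added later, the 8 libraries left out and the first component as a covariate. Replicate numbers did not pair mice (79 pairs, mean r = -0.0025).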

Additional observations from a re-analysis of the deposited data

How the results depend on the processing

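Of the counts past the test (6, 10, 1 and 7 for 15 against control, 15 against 1.5, 150 against 1.5 and 150 against 15 mg/kg, and 0 for 1.5 and 150 mg/kg against control), these moved by over 1.5 times. Without the 8 libraries they were 1 for 15 mg/kg against control, 2 for 15 against 1.5 mg/kg and 2 for 150 against 15 mg/kg. With the first component as a covariate they were 2, 2 and 2, and 1 for 150 mg/kg against control (Stat2, -0.44, adjusted p = 0.045). Of these genes that was 5.71%, 5.71%, 5.71% and 2.86%, and of all rows 9.12%, 5.72%, 10.9% and 3.86% passed, in the same order. Array quality weights gave 3 for 15 mg/kg against control, 6 for 15 against 1.5 mg/kg and 1 for 1.5 mg/kg against control (H2-D1). The rank-sum test gave 2, 5 and 4 for 15 against control, 15 against 1.5 and 150 against 15 mg/kg. Quantile normalization gave 1 for 150 mg/kg against control (H2-K1, -0.21, adjusted p = 0.039). A log2FC beyond 0.5 left 5 for 15 against 1.5 mg/kg, 3 for 150 against 15 mg/kg and 0 for 150 against 1.5 mg/kg, which was also 0 with no filter and with the replicate block. Of all 11431 rows the log2FC beyond 0.5 left 817, 769 and 187, in the same order. With each mouse left out in turn the counts were 5 to 8, 7 to 11, 0 to 1 and 7 to 9, and 0 for 1.5 and 150 mg/kg against control. Shares of all rows are not given for the weights, the rank-sum test and the other alternatives. Their counts are therefore not read as results about these genes.

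The replicate number as a block also lost Bst2 (adjusted p = 0.054) and Irf1 (adjusted p = 0.053) at 15 against 1.5 mg/kg, leaving 8, and H2-D1 at 150 against 1.5 mg/kg (adjusted p = 0.071). The numbers did not pair mice (12.7% of 79 pairs had a correlation over 0.1), so a call lost under the block is not a weaker effect.

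B2m reversed for 15 mg/kg against control without the 8 libraries (-0.030), and Bst2 for 15 against 1.5 mg/kg with the first component as a covariate (0.087). Without the 8 libraries 4 of 24 calls stood and 19 fell short of the threshold in the same direction, and with the covariate 6 stood and 17 fell short. Calls that 1 mouse left out ended were, for 15 against 1.5 mg/kg, Irf1 (15 of 26 fits), Ifit1 (7, replicates 2, 3, 5 and 13 at 1.5 and 5, 7 and 8 at 15 mg/kg), Bst2 (6, replicate 8 at 1.5 and 4, 5, 6, 8 and 9 at 15 mg/kg) and Stat2 (1, replicate 8 at 15 mg/kg). The cause was not tested.

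Of 10 pairs, 6 passed by r. This was 3 of 8 under quantile normalization, where Ciita could not be computed and Irf1 and Tap1 fell short (r = 0.30, adjusted p = 0.064), and 7 without the 8 libraries. Nlrc5 with H2-K1 changed sign under quantile normalization (r = 0.0041) and Nlrc5 with B2m without the 8 libraries (r = -0.013).

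Depth is unknown, so no counting error can be given. The tested genes with a mean under 3 (Ifit1, Oas1a, Oasl2, Usp18, Gbp2 and Gbp3) hold values of few rounding steps, and with a minimum mean of 5 Ifit1 was not tested.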
